A study of Homo sapiens with 12 samples.

Results

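The red cell membrane skeleton was described here through 7 listed genes, SPTB, ANK1, EPB41, EPB42, SLC4A1, ADD2 and TMOD1, out of 27348 gene symbols in the RNA table. All 7 were in the table and all 7 could be placed on GRCh37, the assembly of hg19, as could 24386 of the symbols in all. The cells were K562, an established line from a chronic myeloid leukemia. They were infected with lentivirus that carried either an empty vector (shCT) or 1 of 2 short hairpins against the long isoform of PHF19 (sh#1 and sh#2, labelled sh1 and sh2), and all of them were selected with puromycin. RNA-seq comprised 6 libraries, 2 in each of the 3 groups, and ChIP-seq comprised 6 libraries, 1 for each condition. The ChIP-seq results rest on 3 peak lists, that of PHF19 in shCT, that of MTF2 in shCT and that of MTF2 in sh2. Libraries of PHF19 in the hairpin cells, and of IgG, were not analysed here. The header of the MTF2 sh2 list carries another hairpin number than its label, and the label was followed.

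The membrane skeleton is a mesh of spectrin on the inner face of the red cell membrane that gives the cell its shape and lets it deform. Ankyrin and protein 4.2 tie spectrin to the anion exchanger band 3, while protein 4.1, adducin and tropomodulin hold together or cap the short actin filaments at the knots of the mesh. Several of these genes start from more than 1 first exon, and which one is used depends on the tissue. PHF19 and MTF2 are Polycomb-like proteins that bring Polycomb repressive complex 2, which methylates lysine 27 of histone H3, to DNA rich in CpG.

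Of the 7 genes, 4 (SPTB, ANK1, SLC4A1 and ADD2) had a peak of PHF19 and of MTF2 within their region, and 3 (EPB41, EPB42 and TMOD1) had none in any list. Of all placed genes, 10.1% had a PHF19 peak, 13.4% an MTF2 peak in shCT, 18.0% one in sh2 and 6.34% a peak in all 3 lists. All 7 were expressed, and members with and without a peak overlapped in level. Most of the sequence under peaks belonged to ANK1, in a stretch before its canonical start. The peaks of SPTB and SLC4A1 lay toward the end of the gene, and ADD2 was the one member whose canonical start lay under a peak.

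The sequences just before the canonical start differ widely in CpG among the members, and 3 of them are shown because PHF19 and MTF2 are known to favour such DNA. Each is the 150 bases that precede the start, read 5′ to 3′ on the strand of the gene from GRCh37, with every CpG in capitals. ADD2 (chr2:70995333-70995482, minus strand) held 21 CpG and lay at a start with peaks, TMOD1 (chr9:100263798-100263947, plus strand) held 22 CpG and had no peak, and SPTB (chr14:65346626-65346775, minus strand) held 15 CpG and had none at its start.
ADD2: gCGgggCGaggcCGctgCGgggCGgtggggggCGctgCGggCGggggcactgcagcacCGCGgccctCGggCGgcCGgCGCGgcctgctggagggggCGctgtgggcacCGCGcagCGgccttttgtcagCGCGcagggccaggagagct
TMOD1: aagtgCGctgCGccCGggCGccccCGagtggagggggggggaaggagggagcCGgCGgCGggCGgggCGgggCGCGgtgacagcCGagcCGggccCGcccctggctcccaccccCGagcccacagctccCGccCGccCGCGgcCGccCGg
SPTB: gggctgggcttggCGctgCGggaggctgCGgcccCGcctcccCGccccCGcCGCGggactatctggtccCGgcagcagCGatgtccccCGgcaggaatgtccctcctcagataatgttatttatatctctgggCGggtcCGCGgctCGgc

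EPB42 stood at the other end, with 1 CpG in the same 150 bases (chr15:43513217-43513366, minus strand). Here the capitals mark motifs of 2 kinds of factor that act at erythroid genes, searched on both strands. The first is the GATA motif, which is GATA preceded by A or T and followed by A or G, and the second is CACCC, the core bound by Krüppel-like factors.
EPB42: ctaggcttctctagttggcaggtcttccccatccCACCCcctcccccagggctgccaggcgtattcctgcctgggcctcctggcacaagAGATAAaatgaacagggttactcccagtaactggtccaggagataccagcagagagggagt

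The bases shown for EPB42 thus carried both motifs. From 250 bases before to 50 after the canonical start, the GATA motif had 2 matches at EPB42 and 2 at SPTB, and it was found at 21.4% of the 24274 canonical starts of all placed genes. CACCC had 2 matches at EPB42 and 1 at SPTB, and was found at 61.5% of all starts. Both motifs together were found at 11.0% of all starts. TMOD1 and ADD2, whose starts are rich in CpG, had 1 match of CACCC each and no GATA motif, as had ANK1, and EPB41 had neither. These are matches of letters in a window and no binding of either factor was measured.

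The level of each member could be given as 1 value, the authors' mean of normalized counts over all 6 libraries. It holds no spread between replicates and no difference between shCT and the hairpins, and neighbours in the order of levels cannot be said to differ. In RNA from a whole culture, fewer expressing cells and less RNA per cell cannot be told apart. Levels between genes were compared per kb of the canonical transcript. The erythroid character of the cells was clear in the same unit, with all 7 erythroid markers between 1412 per kb (TAL1) and 293100 per kb (HBG2), and all 5 markers of lymphoid, liver, fibroblast and granulocyte cells between 0.444 and 22.6 per kb.

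EPB41, which encodes protein 4.1, stood highest among the members with a mean of 18510 normalized counts, or 3069 per kb, above 95.6% of the 19535 genes with a mean over 0 and a transcript length. TMOD1, the tropomodulin that caps the slow-growing end of actin filaments, had a mean of 3316, or 1002 per kb. ANK1, the ankyrin that links spectrin to band 3, had a mean of 7220, or 871 per kb. These 3 genes lay in the highest of 5 equal groups of genes by level.

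ADD2, the beta subunit of adducin, had a mean of 5544, or 597 per kb, the middle value of the 7. SPTB, the beta spectrin of red cells, had a mean of 4176, or 410 per kb. SLC4A1, which encodes band 3, the chloride and bicarbonate exchanger, had a mean of 910.0, or 184 per kb, above 60.4% of genes. These 3 genes lay in the fourth group of levels.

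EPB42, which encodes protein 4.2, was lowest with a mean of 186 normalized counts, or 79.4 per kb, close to the median of 76.4 per kb over all genes. The members thus ranged from about the median gene to near the top of the table. Per kb of all exons joined, in place of the canonical transcript, their order was the same, from 926 for EPB41 to 63.5 for EPB42.

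The genes of proteins that work beside the members at the membrane had a higher median than the members, and the paralogs had a lower one, with ranges that overlapped. The 12 partner genes had a median of 1112 per kb, from 340 per kb for TMOD3, a tropomodulin of many tissues, to 28700 per kb for ACTB, beta actin. The 22 paralogs had a median of 23.0 per kb, against 597 per kb for the members. The highest paralog was SLC4A2, an anion exchanger of many tissues, at 1702 per kb, which was above every member but EPB41. These places depended on the length used. Per kb of all exons joined, partners ran from 78.05 for TPM1 to 15520 for RHAG. SLC4A2 then had 926.2, against 925.9 for EPB41. TGM7, a transglutaminase of the family to which protein 4.2 belongs, was listed at 0. PHF19 itself had 1879 per kb and MTF2 had 686 per kb, and neither gene had a peak in any list. The value of PHF19 includes the libraries with hairpins against it, so it is not its level in shCT.

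**Figure D1:**
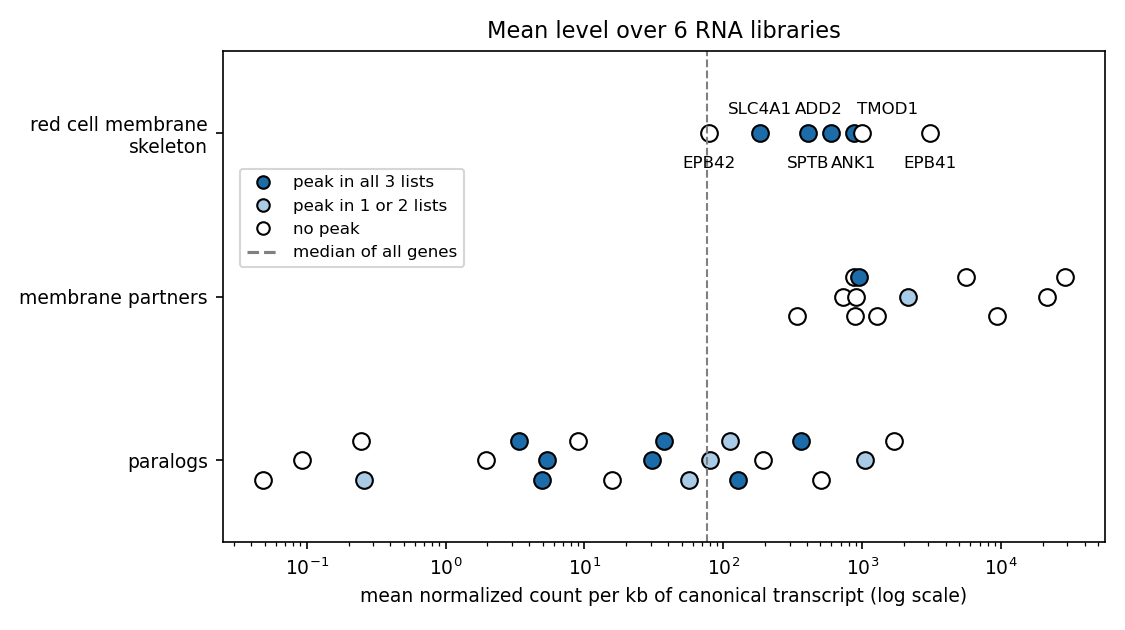
Mean normalized count per kb of canonical transcript, on a log scale, for the 7 skeleton genes, 12 membrane partners and 21 of 22 paralogs (TGM7, listed at 0, cannot be drawn), each point being 1 gene and its mean over 6 libraries. The dashed line is the median of all genes, 76.4 per kb, and the members with no peak (white) include both the highest, EPB41, and the lowest, EPB42.

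Peaks were then assigned to a gene when they overlapped by at least 1 bp the stretch from 2.5 kb upstream of a transcription start site to the end of that transcript. PHF19 peaks were at 4 of the 7 members, while 10.1% of the 24386 placed genes had one. This PHF19 list holds more peaks than the paper kept after its minimum of tags, which could not be applied here. With PHF19 peaks at or above the median score of the list, 2 members (ANK1 and SLC4A1) were left, with 6.01% of all genes. MTF2 peaks in shCT were at 4 of the 7, with 13.4% of all genes, and MTF2 peaks in sh2 were at the same 4, with 18.0% of all genes. All 4 genes were in all 3 lists, which held for 6.34% of all genes. No member had an MTF2 peak in sh2 and none in shCT, a pattern of 5.45% of all genes. With 1 library for each list there is no replicate, and these counts carry no test.

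Gene length moved with these shares. SPTB, ANK1, EPB41, ADD2 and TMOD1 belonged to the longest of 5 equal groups of genes by length, in which 17.6% of genes had a PHF19 peak, 23.2% an MTF2 peak in shCT and 28.9% one in sh2. EPB42 and SLC4A1 belonged to the middle group by length, with 8.73%, 11.2% and 15.5%. The part of length in the members' count was not tested.

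Near transcription start sites fewer members had a peak, and the shares of all genes were lower too. Within 2.5 kb of any annotated start, PHF19 peaks were at 2 members (SPTB and ADD2), with 7.82% of all genes. In MTF2 shCT 3 members had such a peak (SPTB, ANK1 and ADD2), with 11.1% of all genes, and in MTF2 sh2 only ANK1 did, with 15.5% of all genes. At SPTB the start in question was that of a short noncoding transcript near the end of the gene. The nearest MTF2 peak of sh2 lay 2.75 kb from that start, just past the limit. The 7 genes have 40 groups of starts, counting starts within 1 kb of each other as 1 group, and 14 of these have a coding transcript of the basic annotation. A peak lay over 2 of the 14, the farthest start of ANK1 and the canonical start of ADD2.

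In the table as a whole, peaks were less frequent at high genes, and the members with peaks were no low genes. Of the 3907 genes in the highest group of levels, which holds EPB41, TMOD1 and ANK1, 6.35% had a PHF19 peak, and 2.25% and 2.92% had an MTF2 peak in shCT and sh2. ANK1 was among them in every list, through peaks upstream of its canonical start. Its level is per kb of the canonical transcript, and on that transcript alone it had no peak. In the fourth group, with ADD2, SPTB and SLC4A1, the shares were 6.94%, 3.66% and 5.27%.

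The 3 lists held 8 PHF19 peaks, 10 MTF2 peaks of shCT and 10 MTF2 peaks of sh2 at members. The lists differ in size, with 5621 PHF19 peaks over 11.5 Mb, 12502 MTF2 peaks of shCT over 29.0 Mb and 18287 MTF2 peaks of sh2 over 63.2 Mb. The score is the number that the peak caller gave a peak, with a lowest value of 50 in each list, and it was read only against the same list, as a rank. Of the 8 PHF19 peaks, 6 overlapped an MTF2 peak of shCT, as did 47.5% of all PHF19 peaks. An MTF2 peak of sh2 was overlapped by 3 of the 8, against 57.5% of all. These 3 all lay under a single sh2 peak at ANK1, 20327 bp wide and with a score of 52.0. That peak also lay over MTF2 peaks of shCT, so the overlaps counted here are not separate sites. Of the 10 MTF2 peaks of shCT, 7 overlapped one of sh2, against 83.2% in the whole list. Of the 10 MTF2 peaks of sh2, 4 overlapped one of shCT, against 46.9%.

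ANK1 held 4 of the 8 PHF19 peaks and 6 of the 10 peaks in each MTF2 list. The gene (ENSG00000029534) lies on the minus strand of chromosome 8, from 41510739 to 41754259, and its 16 transcripts fall into 8 groups of starts. The canonical start is at 41655140, and the farthest upstream start, used by 2 coding transcripts, lies 99.1 kb before it at 41754259. Every peak of ANK1 lay upstream of the canonical start, from 51.9 kb to 101 kb before it, in or just before the first intron of the transcripts that begin at that farthest start. No peak lay over or within 2.5 kb of the canonical start.

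The strongest PHF19 peak of ANK1 covered 4137 bp from 41710244 to 41714380, with a score of 203, which ranked it 393 of 5621. In shCT it was overlapped over 3741 bp by MTF2 peaks, at 41709353 to 41710776 (score 63.1) and at 41711021 to 41714228 (score 109). No MTF2 peak of sh2 overlapped it, the closest ones ending at 41707909 before it and starting at 41715853 after it. This was the only one of the 4 PHF19 peaks of ANK1 without an MTF2 peak in sh2.

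The other 3 PHF19 peaks of ANK1 lay farther from the canonical start, at 41721790 to 41722984 (score 50.2), 41732482 to 41734821 (score 104) and 41736587 to 41739291 (score 114). Each overlapped an MTF2 peak of shCT. These lay at 41722047 to 41723961 (score 52.9), 41731281 to 41735942 (score 189) and 41736506 to 41738811 (score 165), and the widest covered 4662 bp. In sh2 all 3 lay under a single MTF2 peak of 20327 bp, from 41720700 to 41741026. That peak was wider than 99.7% of its list, while its score of 52.0 was above 3.20% of the list.

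The farthest start of ANK1 was under MTF2 in both conditions and had no PHF19 peak. In shCT the MTF2 peak covered 4387 bp from 41752079 to 41756465 with a score of 408 (rank 716 of 12502), and in sh2 the peak there covered 8532 bp from 41748101 to 41756632 with a score of 923 (rank 555 of 18287). The nearest PHF19 peak was 15 kb away. CpG was dense at this start, with 17.3 per 100 bases within 150 bases of it.

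In sh2, 5 MTF2 peaks of ANK1 followed each other from 41715853 to 41756632 with gaps of 210 to 406 bp, and together covered 97.0% of these 40.8 kb. Beside the wide peak and the one at the farthest start, they were 41715853 to 41720293 (score 112), 41741237 to 41744792 (score 102) and 41745032 to 41747728 (score 161). The narrow sh2 peak nearest to the canonical start, at 41706997 to 41707909, had a score of 51.4. Bases under MTF2 peaks in ANK1 came to 17902 in shCT and 40466 in sh2, 2.26 times as many. The whole sh2 list covered 2.18 times as many bases as the whole shCT list, so the ratio at ANK1 was close to that of the lists. When only the strongest 12502 peaks of sh2 were kept, as many as in shCT, 19226 bases of ANK1 lay under them, since the wide peak and the narrow one were not among them.

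**Figure D2:**
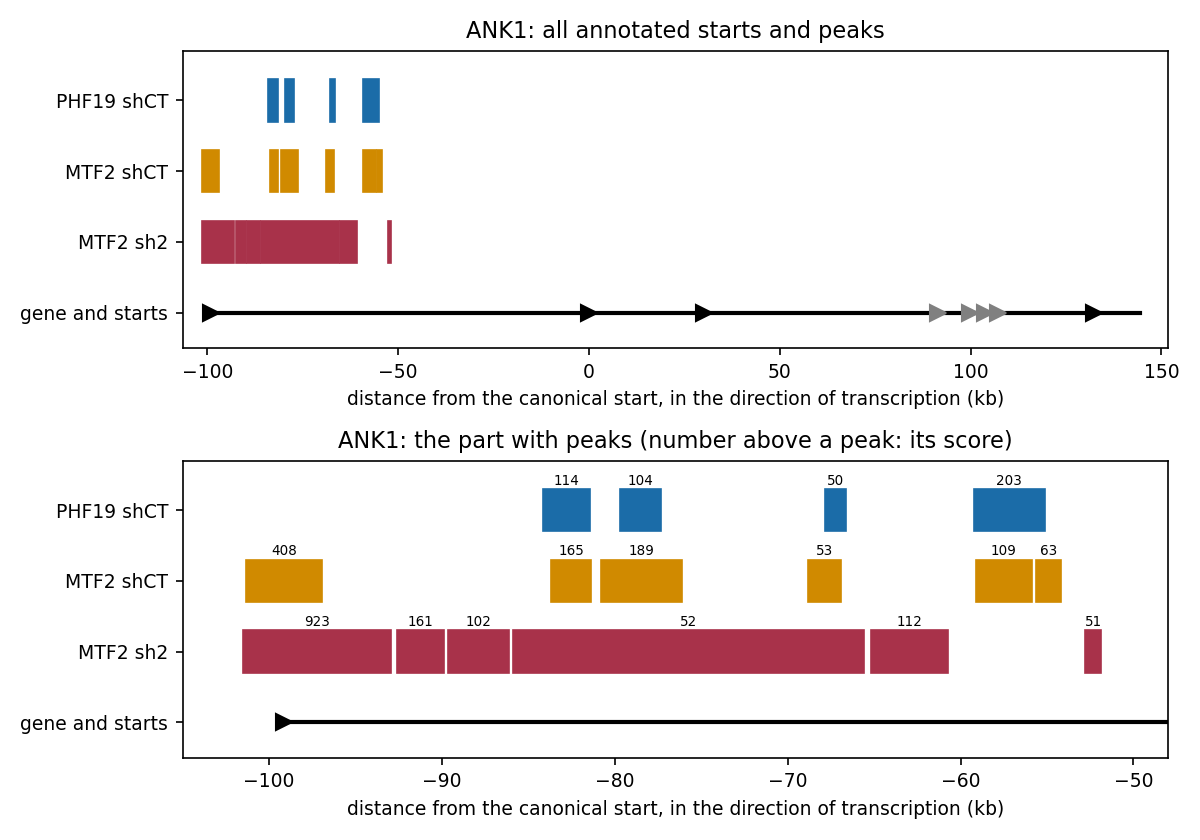
Peaks at ANK1 by distance from its canonical start in kb, negative values being upstream, with the whole gene above and the part with peaks below; triangles are groups of starts, black where the basic annotation has a transcript. MTF2 peaks of sh2 form an almost unbroken run over 40.8 kb that ends short of the strongest PHF19 peak (score 203).

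SPTB (ENSG00000070182) lies on the minus strand of chromosome 14, from 65213001 to 65346625, and its peaks were all near the end of the gene. The single PHF19 peak covered 1172 bp from 65221986 to 65223157 within intron 32 of the 36-exon canonical transcript, with a score of 62.1 (rank 3752 of 5621). An MTF2 peak of shCT with a score of 100.13 overlapped it by 970 bp, from 65221395 to 65222955. An MTF2 peak of sh2 at 65218689 to 65221509, over exon 33 and with a score of 125, adjoined these peaks and overlapped the shCT peak by 115 bp, but not the PHF19 peak.

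A further peak of each MTF2 list lay at the end of SPTB, where the gene PLEKHG3 overlaps it. In shCT it ran from 65212089 to 65213192 over exon 36, and in sh2 from 65215623 to 65216977 over exons 34 to 36, with scores of 92.7 and 54.9. These did not overlap, but another MTF2 peak of sh2 (65211729 to 65212990, score 58.4), just past the end of SPTB and so not counted to it, covered 902 of the 1104 bp of the shCT peak. The peaks at this end can belong to either gene. The canonical start of SPTB was 26.8 kb from the nearest PHF19 peak and at least 90.0 kb from any MTF2 peak.

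The PHF19 peak in SPTB was poor in CpG, with 1.71 per 100 bases over its length. It was no exception, as the median over the 8 PHF19 peaks at members was 1.52. Its middle 150 bases are shown to set beside the start of ADD2, read on the strand of the gene from chr14:65222497-65222646 of GRCh37 with CpG in capitals, of which there were 2.
SPTB intron 32: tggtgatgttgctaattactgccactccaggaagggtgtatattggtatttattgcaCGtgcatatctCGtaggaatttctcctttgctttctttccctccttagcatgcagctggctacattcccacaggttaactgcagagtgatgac

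SLC4A1 (ENSG00000004939) lies on the minus strand of chromosome 17, from 42325758 to 42345509. Its PHF19 peak, from 42324460 to 42325884 with a score of 90.3, reached only 127 bp into the last exon and had its centre past the end of the gene. With an overlap of at least 200 bp, or with the centre of the peak required within the region, SLC4A1 had no PHF19 peak. The MTF2 peaks lay elsewhere, at 42331708 to 42332914 in shCT (1207 bp over exons 15 and 16 of 20, score 68.2) and at 42331368 to 42333269 in sh2 (1902 bp over exons 14 to 16, score 108). The sh2 peak contained the whole shCT peak. The canonical start was 12.2 kb from the nearest peak of any list, so no peak lay over it.

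ADD2 (ENSG00000075340) lies on the minus strand of chromosome 2, from 70834750 to 70995357. Its canonical start at 70995332 lay under a PHF19 peak of 676 bp, from 70994813 to 70995488, whose score of 51.9 ranked it 5234 of 5621. An MTF2 peak of shCT at 70994269 to 70995458 overlapped it by 646 bp and had a score of 84.1 (rank 6478 of 12502). Both lists thus placed a low or middling peak on exon 1, with 9.17 and 8.99 CpG per 100 bases under them. No MTF2 peak of sh2 lay there, and the nearest was 32.5 kb from the start.

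The other peaks of ADD2 lay beyond the end of the canonical transcript, in intron 20 of the longer transcript ADD2-203. PHF19 had a peak there from 70853580 to 70854799 with a score of 53.8, and MTF2 had one in sh2 from 70845856 to 70847792 with a score of 98.7. These did not overlap. ADD2 was therefore counted with a peak in sh2 through the far end of a long transcript alone, and on the canonical transcript it had none in sh2.

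**Figure D3:**
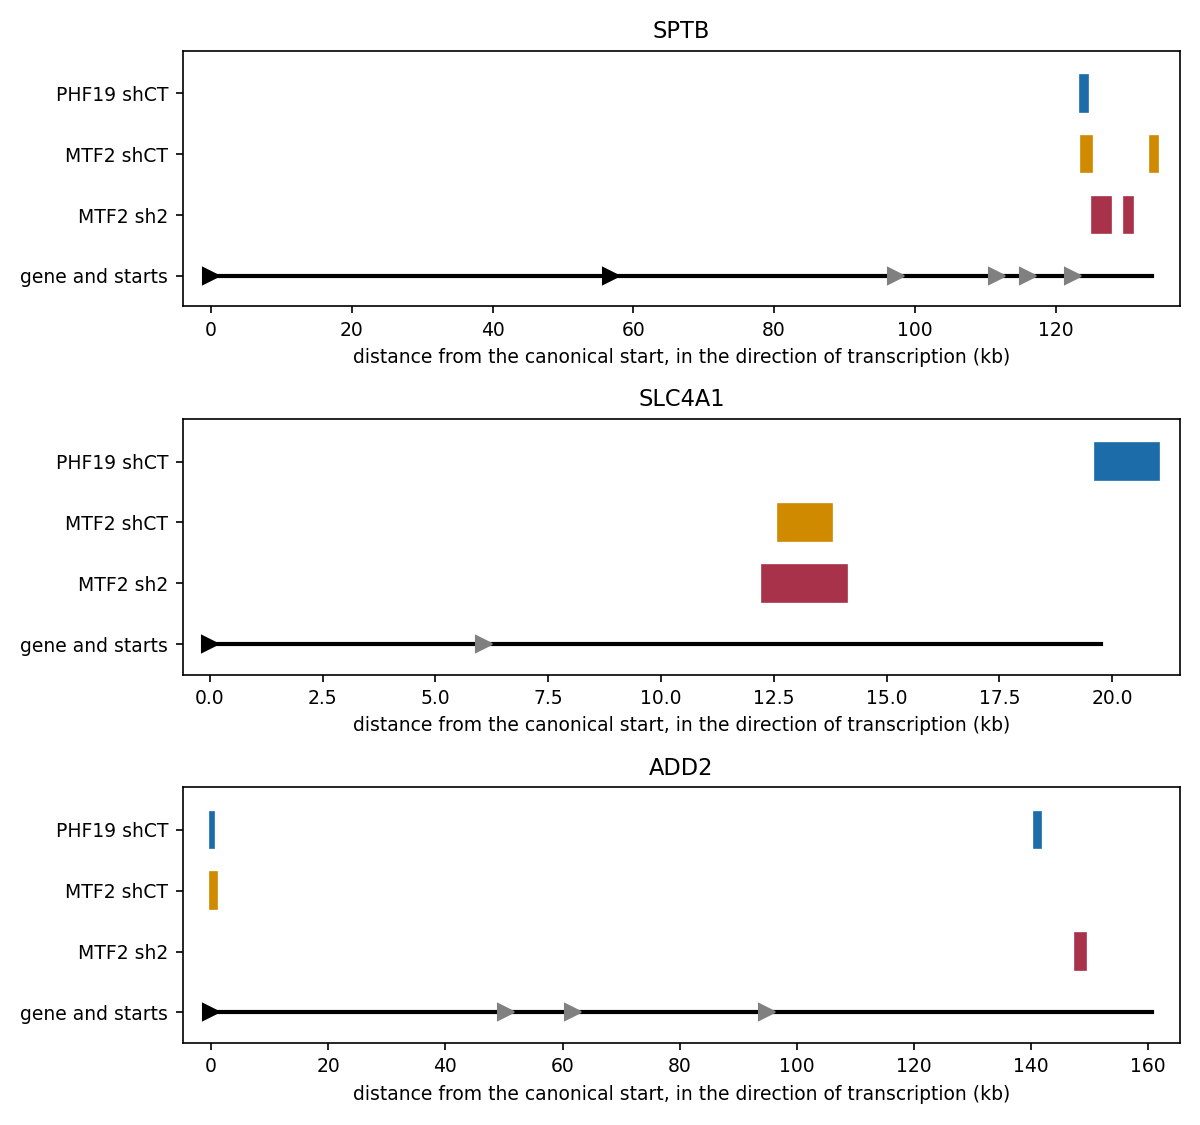
Peaks at SPTB, SLC4A1 and ADD2 by distance from the canonical start in kb, in the direction of transcription; triangles are groups of starts, black where the basic annotation has a transcript. The peaks of SPTB and SLC4A1 lie far from the canonical start, whereas PHF19 and MTF2 shCT peaks lie on that of ADD2, where sh2 has none.

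In bases, ANK1 held 10377 of the 13572 under PHF19 peaks in all members, 17902 of the 22052 under MTF2 peaks in shCT and 40466 of the 48481 under MTF2 peaks in sh2. As a share of its region, ANK1 had 4.22%, 7.28% and 16.4% under PHF19, MTF2 shCT and MTF2 sh2. SLC4A1, the shortest of the 7 genes, came next for MTF2 with 5.42% in shCT and 8.55% in sh2, and had 0.571% under PHF19. SPTB had 0.861%, 1.29% and 3.07%, and ADD2 had 1.16%, 0.730% and 1.19%. Bases under MTF2 peaks were 2.38 times as many in sh2 as in shCT at SPTB, 1.58 times at SLC4A1 and 1.63 times at ADD2. At ADD2 the peaks were not at the same place, and at SPTB the counted peaks shared only 115 bp. With as many sh2 peaks as in shCT, SPTB had 2821 bases in sh2 against 1753 in shCT. The bases of SLC4A1 and ADD2 in sh2 were then unchanged. Such sums move with how many peaks were called and how wide they are, and a difference in calling cannot be told apart here from a difference in binding.

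**Figure D4:**
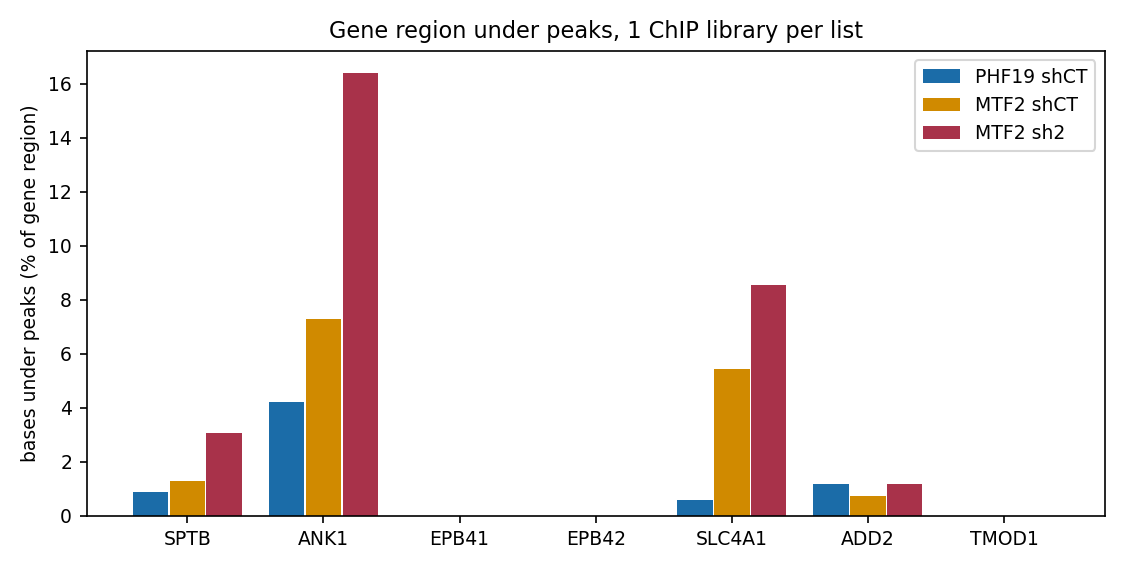
Bases under peaks as a percent of each gene's region, from 2.5 kb upstream of its starts to its end, for the 7 members in the 3 lists, with 1 library per list and so no error bars. ANK1 has the highest share in every list (4.22%, 7.28% and 16.4%), and EPB41, EPB42 and TMOD1 are at 0.

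EPB41, EPB42 and TMOD1 had no peak, at distances that differed. EPB41, on the plus strand of chromosome 1 from 29213603 to 29446558 (ENSG00000159023), had a PHF19 peak 19.9 kb before its first start, at 29190733 to 29193692, and MTF2 peaks 63.7 kb away in shCT and 16.8 kb away in sh2. TMOD1, on the plus strand of chromosome 9 from 100263462 to 100364025 (ENSG00000136842), was farthest from any peak, with 138 kb to PHF19, 255 kb to MTF2 in shCT and 131 kb to MTF2 in sh2. TMOD1 therefore stood apart from ADD2, with a start richer in CpG than that of ADD2 and no peak close by.

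EPB42 (ENSG00000166947), on the minus strand of chromosome 15 from 43489425 to 43513216, has transglutaminase genes for neighbours. TGM7, at 43568469 to 43594453, had a PHF19 peak at 43586143 to 43587345, which was the PHF19 peak nearest to EPB42 at 72.9 kb. The MTF2 peaks nearest to EPB42 overlapped the end of TGM7, 53.5 kb away in both conditions, with scores of 129 in shCT and 413 in sh2. TGM7 was thus listed at 0 and had peaks in all 3 lists. TGM5, which lies between the other two at 43524788 to 43559126, was at 0.247 per kb and had no peak in any list, like the expressed EPB42.

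CpG at the canonical starts spanned most of the range of all genes. Within 150 bases on each side, TMOD1 had 16.0 CpG per 100 bases, EPB41 12.3, ADD2 11.3, SPTB 10.3, ANK1 8.67, SLC4A1 3.67 and EPB42 0.333. The median of all canonical starts was 7.33, so 5 members were above it and 2 below. Starts under a PHF19 peak had a median of 11.7 over 1060 genes, and those under no peak of the 3 lists had 7.0 over 21309 genes. Among the members, the starts of TMOD1 and EPB41 were richer in CpG than that of ADD2 and lay under no peak.

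**Figure D5:**
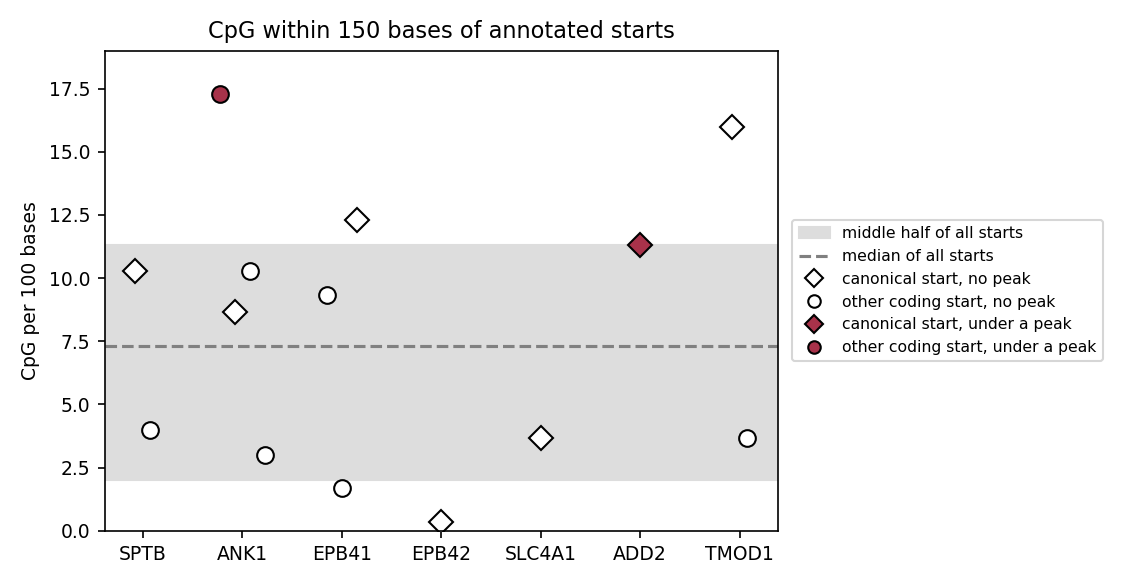
CpG per 100 bases within 150 bases of each of the 14 groups of starts with a coding transcript of the basic annotation, with diamonds for canonical starts and filled symbols for starts under a peak of any list. The grey band spans the lower to the upper quartile of the canonical starts of all genes, and the dashed line is their median, 7.33. The 2 filled starts (ANK1, 17.3, and ADD2, 11.3) lie at or above the upper edge of the band. So do the unfilled canonical starts of TMOD1 and EPB41, but not the other starts of these genes.

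Among the 12 membrane partners, 2 had a PHF19 peak, 1 an MTF2 peak in shCT and 1 an MTF2 peak in sh2. The shares of all genes were 10.1%, 13.4% and 18.0%. Both partners with a PHF19 peak were tropomyosins, which lie along the short actin filaments. TPM1 had 2 PHF19 peaks (highest score 216) and an MTF2 peak in shCT and in sh2 (scores 1021 and 1265), and was expressed at 943 per kb. TPM3 had 2 PHF19 peaks (highest score 78.4) and no MTF2 peak, at 2139 per kb. The level of TPM1 depended on the length used. Per kb of all exons joined it was 78.05, above 55.3% of genes in place of 85.9%. TPM3 then had 998.9, above 92.4% in place of 93.7%. The other 10 partners, with the other adducins (ADD1 and ADD3) among them, had no peak.

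Of the 22 paralogs, 9 had a PHF19 peak, 10 an MTF2 peak in shCT and 13 one in sh2, with 10.1%, 13.4% and 18.0% of all genes. The 9 with PHF19 were SPTBN1, SPTBN4, SPTAN1, ANK3, EPB41L1, EPB41L4A, EPB41L4B, SLC4A3 and TGM7, and 8 of them had it within 2.5 kb of a start. This was so for 76.9% of the 2462 genes with a PHF19 peak and for 2 of the 4 such members. Their levels ran from 0 for TGM7 and 3.38 per kb for EPB41L4B to 360 per kb for SPTBN1, the beta spectrin of most other tissues. SPTBN1 and SPTB were thus at like levels of 360 and 410 per kb, and SPTBN1 carried its MTF2 peaks (highest scores 367 in shCT and 824 in sh2) partly at a start. ANK3, a neuronal and epithelial ankyrin, had 80.6 per kb, a PHF19 peak with a score of 54.0 and an MTF2 peak in sh2 alone.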

How the data were processed

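Expression and chromatin binding were measured in K562 cells, with samples grouped by their labels. For RNA-seq, the authors mapped reads with TopHat to hg19, counted RefSeq exons and compared both hairpins with shCT by DESeq2. The deposited table holds, per gene, a mean normalized count over all 6 libraries, which is used as the level here. It also holds 5 columns of the authors' comparison (log2 fold change, its standard error, statistic, p-value and adjusted p-value). Those 5 columns were not used, so no difference between groups is given, and depth per library is unknown. ChIP-seq reads were aligned by the authors with Bowtie, to hg19 and to dm3 for the fly spike-in, before MACS called peaks in each library. The deposited lists give positions and a score, and no tag counts, so the authors' minimum of tags for PHF19 could not be applied. The header of the PHF19 list also names a hairpin sample, and which control the caller used is not known. Versions of these tools: not given in the sources used here.

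Members and gene lists were chosen with earlier results of these data known. The text names the 7 members with every peak, and those partners and paralogs with a PHF19 peak or with the highest or lowest level. Motif matches are given for 6 members, and those of the other are not reported here. The remarks on ADD1, ADD3 and TGM5 were added after their values were seen. Genes were placed by GENCODE 44 on GRCh37, 23366 by symbol and 1020 by an older symbol through RefSeq synonyms. For genes with no canonical tag (1819), the longest transcript was used, taken from the basic annotation where the gene had one there. Coordinates are 1-based. Peak assignment was tested on simulated peaks. Python 3.11.15, numpy 2.4.6, pandas 2.3.3, samtools 1.23.1 and matplotlib 3.10.9 were used. Alternatives were other regions, overlaps, score limits, lengths and windows.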

Additional observations from a re-analysis of the deposited data

How the results depend on the processing

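Counts of members are small, each list rests on 1 library, and the depth behind a peak is unknown. No paired analysis was possible because the results come from no test, and leaving out a replicate was not run, since the RNA values are a mean over all libraries. Of 69 alternatives for 36 results, 47 stayed within 1.5 times the main value and 22 did not, and 8 of these concern single genes.

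Within 2.5 kb of a start, the count of members fell from 4 to 2 for PHF19 and from 4 to 1 for MTF2 sh2. The shares of all genes there were 7.82% and 15.5%. In that window 2 members (SPTB and ADD2) had an MTF2 peak in shCT and none in sh2, against 0 over the whole region and 0.681% of all genes. At SPTB the start was that of a noncoding transcript, and the nearest MTF2 peak of sh2 lay 2.75 kb from that start, just past the limit. On the canonical transcript alone, ANK1 had no peak. The count of members was then 3 for PHF19, 3 for MTF2 shCT and 2 for MTF2 sh2, with 9.15%, 12.4% and 16.7% of all genes. Bases under peaks fell to 1975 for PHF19, 4150 for MTF2 shCT and 6078 for MTF2 sh2. With peaks at or above the median score of their list, 2 members were left in each list (6.01%, 9.14% and 12.8% of all genes in PHF19, MTF2 shCT and MTF2 sh2), and above the upper quartile of scores 1, ANK1 (3.63%, 5.98% and 8.69%). With as many sh2 peaks as shCT peaks, 25886 bases of the members lay under MTF2 in sh2. Over genes with a mean of at least 10, EPB42 stood above 31.1% of genes in place of 50.4%, and within 500 bases of the start above 18.3% of starts in CpG in place of 2.21%.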
